A study of Mus musculus with 12 samples.

Results

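Sphingolipids are built on a long-chain base, and ceramide, the base joined to a fatty acid, stands at the centre of their metabolism. The gene set described here holds 40 enzymes and regulators of that pathway, chosen by symbol for their known roles in ceramide synthesis, omega-O-acylceramide processing, ceramide breakdown and sphingosine phosphate turnover. All 40 were among the 23282 gene entries counted in mouse skin, and all 40 passed the filter on low counts that left 14163 genes to be tested.

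Skin RNA was sequenced from 5 mice of the AD group and 7 mice of the HF + AD group (labelled AD+OB), with 1 library per mouse. All were wild-type male C57BL/6J mice that arrived at 5 weeks of age, and atopic dermatitis (AD)-like lesions were induced in both groups with 0.5% 2,4-dinitrochlorobenzene (DNCB), a contact sensitizer, applied to the back 3 times per week for 6 weeks. The AD mice received a standard diet for 10 weeks, and the HF + AD mice a high-fat diet with 60% of its energy from fat, started 4 weeks before DNCB. Unsensitized mice on either diet were not analysed here, so that every value below compares diets in inflamed skin and none compares inflamed with healthy skin. The file numbering of the HF + AD libraries is the one that the series' design gives to mice that were also dosed with an agent named GHJGS. The sample labels name no such agent and were followed here.

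Ceramide is made from serine and palmitoyl-CoA by serine palmitoyltransferase, a reductase, ceramide synthases and a desaturase. In the upper epidermis it is stored as glucosylceramide and sphingomyelin in lamellar bodies, released at the base of the stratum corneum and converted back to ceramide, where it seals the skin against water loss. A class particular to the epidermis, the omega-O-acylceramides, carries an ultra-long fatty acid esterified to linoleate, and its oxidized form is bound to the cornified envelope. Ceramidases release sphingosine, whose phosphate acts as a signal through receptors on many cells.

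Reads counted on genes totalled 9746937 to 11688979 in the AD libraries and 10726845 to 13462434 in the HF + AD libraries. A count of 0 in 1 library allows up to 3 counts. From library totals alone, that is at most 0.308 CPM (counts scaled to a common library size) in the AD group and 0.280 CPM in the HF + AD group. A read was found on 13100 to 15063 genes in the AD libraries and on 15522 to 16677 in the HF + AD libraries, without overlap. Correlated across genes (which are not replicates), pairs of libraries had a median r of 0.895 within the AD group and 0.962 within the HF + AD group. Between the groups the median r was 0.917, higher than within the AD group. Epidermal markers were present in all libraries, among them Krt5 at 2232 CPM or more. In whole skin, fewer cells of a type and less RNA per cell cannot be told apart. Reads come from the 3′ end of each mRNA and CPM is not scaled by length, so levels are compared between mice for 1 gene and not between genes.

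At an adjusted p under 0.05 (edgeR quasi-likelihood test, Benjamini-Hochberg over all genes tested), 2 of the 40 sphingolipid genes differed between the groups. Sgms2, a sphingomyelin synthase, was 2.55-fold higher in the HF + AD group, and Sptssa, the small subunit that activates serine palmitoyltransferase, was 1.96-fold lower. That share of 5% lies under the 9.2% of all genes that were called, with 4.43% higher and 4.77% lower. Of all calls 48.1% were higher, which became 59.1% with library totals as the scaling and 35.3% after a correction for GC content (explained with Sptssa). At an unadjusted p under 0.05, 10 of 40 members (25%) differed, 4 higher and 6 lower, against 25.1% of all genes, with 12.3% higher and 12.8% lower. No member separated the groups without overlap, whereas 5.45% of the genes tested did. The fitted fold change was above 0 for 19 members (47.5%) and for 51.7% of all genes, and its median was -0.07 on the log2 scale over the members and 0.02 over all genes. The counts for the gene set thus lay at or under the background, and the 2 called genes act at opposite ends of ceramide synthesis, its first step and its conversion to sphingomyelin.

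**Figure D1:**
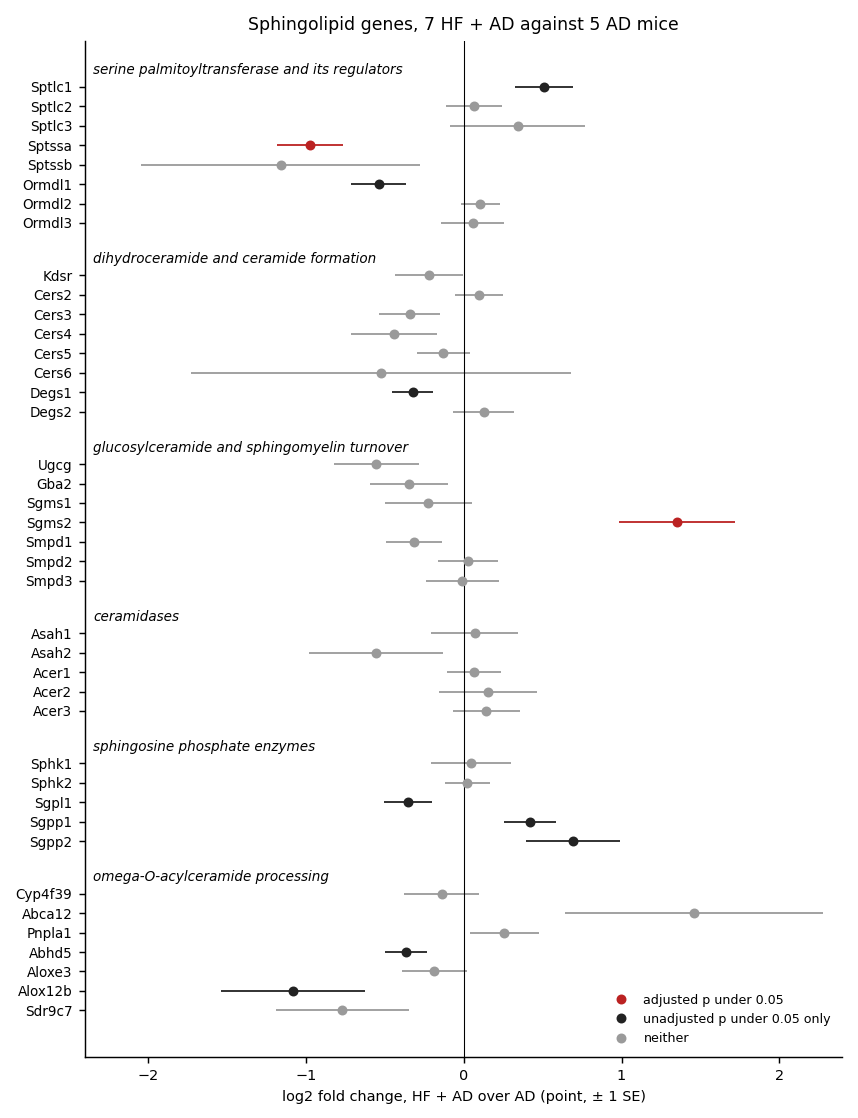
Log2 fold change of each of the 40 genes, HF + AD over AD, with 1 SE on either side (edgeR fit to 5 and 7 mice), grouped by role. Red points mark the 2 genes with an adjusted p under 0.05, Sptssa at -0.97 and Sgms2 at 1.35, and black points the other 8 with an unadjusted p under 0.05.

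The promoters of the called genes are shown next to those of their closest relatives in the pathway, since each pair shares a function while 1 of its genes was called. Each run holds 250 bases before and 50 bases after a RefSeq gene start (GRCm38.p6), read on the gene's strand, with capitals marking a CCAAT box (CCAAT) or a GC box (GGGCGG) on either strand. Sgms1 and Sgms2 have further RefSeq starts, and the first listed is shown.
Sptssa, chr12:54656523-54656822, minus strand: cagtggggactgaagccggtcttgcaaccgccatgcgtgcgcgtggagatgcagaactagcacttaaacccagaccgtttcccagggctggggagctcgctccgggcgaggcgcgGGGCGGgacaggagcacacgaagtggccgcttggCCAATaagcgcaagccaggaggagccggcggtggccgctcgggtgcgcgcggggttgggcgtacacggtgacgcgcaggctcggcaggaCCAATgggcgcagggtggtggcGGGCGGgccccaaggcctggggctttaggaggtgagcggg
Sptssb, chr3:69859845-69860144, minus strand: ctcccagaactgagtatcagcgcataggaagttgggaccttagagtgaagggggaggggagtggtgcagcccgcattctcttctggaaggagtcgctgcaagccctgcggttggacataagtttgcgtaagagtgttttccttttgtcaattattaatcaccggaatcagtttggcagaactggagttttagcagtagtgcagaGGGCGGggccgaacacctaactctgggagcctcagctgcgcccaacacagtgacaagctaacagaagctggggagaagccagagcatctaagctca
Sgms2, chr3:131491394-131491693, minus strand: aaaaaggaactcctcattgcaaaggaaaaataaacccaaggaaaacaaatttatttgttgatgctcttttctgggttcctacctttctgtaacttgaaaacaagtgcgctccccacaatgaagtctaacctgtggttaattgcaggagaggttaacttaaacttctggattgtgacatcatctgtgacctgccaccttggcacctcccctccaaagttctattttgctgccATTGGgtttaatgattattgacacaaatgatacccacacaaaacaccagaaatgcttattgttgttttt
Sgms1, chr19:32388463-32388762, minus strand: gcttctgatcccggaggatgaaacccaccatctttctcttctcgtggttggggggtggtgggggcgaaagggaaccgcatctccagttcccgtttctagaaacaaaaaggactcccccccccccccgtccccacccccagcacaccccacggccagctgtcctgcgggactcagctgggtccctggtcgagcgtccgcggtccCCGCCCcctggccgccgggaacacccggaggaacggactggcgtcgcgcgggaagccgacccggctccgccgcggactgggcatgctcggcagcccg

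The promoters of Sptssa and Sgms1 were rich in G and C (70.0% and 69.3%, with 31 and 28 CpG), whereas that of Sgms2 held 39.0% G and C and a single CpG. The Sptssb window was intermediate, at 52.7%. Sptssa held CCAAT boxes at positions -101 and -12 and GC boxes at -135 and 11 relative to the start. A promoter was found for 37 of the 40 members, whose median GC content was 65.7%, against 52.7% over all 27025 promoters. GC boxes were present in 64.9% of the members' promoters and 35.9% of all promoters. The other motifs searched on both strands were CCAAT (32.4% of members, 37.9% of all), a TATA box (TATAAA, 5.41% and 14.2%), an E-box (CACGTG, 13.5% and 7.24%) and an AP-1 site (TGANTCA, 2.7% and 7.93%). All 40 members passed the filter on low counts, whereas the 27025 promoters outnumber the 14163 genes tested and include genes that did not pass it. The part of this difference in the GC content and motif shares was not tested. Such matches describe letters in these windows only.

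Serine palmitoyltransferase condenses serine with palmitoyl-CoA in the first and limiting step of the pathway. Its core is Sptlc1 with either Sptlc2 or Sptlc3, the small subunits Sptssa and Sptssb raise its activity and help set its choice of acyl-CoA, and Ormdl1, Ormdl2 and Ormdl3 restrain it when ceramide is plentiful. Of these 8 genes, 1 was called (Sptssa, lower) and 3 had an unadjusted p under 0.05 (Sptlc1 higher, Sptssa and Ormdl1 lower). The core subunits, the activating subunits and the restraining subunits therefore did not share 1 direction. The counts of 1 and 3 make 12.5% and 37.5% of the 8 genes, against 9.2% and 25.1% of all genes.

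Sptssa (chr12:54645392-54656573, minus strand) stood at 245, 223, 451, 199 and 155 CPM in AD mice 1 to 5. In the HF + AD mice its lowest, median and highest levels were 92.8, 129.99 and 155 CPM. Of the 7 HF + AD mice, 6 lay below every AD mouse, and the ranges met only at their edge, with AD mouse 5 the lowest of its group. In the fit, log2 fold change was -0.97 (SE 0.21, adjusted p = 0.0118, edgeR). An exact permutation test of mean log2(CPM + 1), two-sided, gave p = 0.00253, where the 792 possible splits allow no p under 0.00126. AD mouse 3 was the highest of all, and without it the log2 fold change was -0.66 (adjusted p = 0.0269). The gene has a transcript of low GC content (40.7%, the 6th percentile of genes tested), and calls leaned with GC content, with 72 genes higher and 214 lower in the fifth with the lowest GC content and 195 and 60 in the fifth with the highest. After a correction for each library's trend with GC content, chosen after the data were seen, the log2 fold change of Sptssa was -0.89 (adjusted p = 0.0105).

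Sptlc1, the subunit found in every form of the enzyme, stood at 58.8, 38.9, 59.6, 68.5 and 78.5 CPM in the AD mice. The HF + AD mice ranged from 64.9 to 115 CPM with a median of 85.7, and 5 of 7 exceeded every AD mouse. A log2 fold change of 0.51 (SE 0.18) had an unadjusted p of 0.012 and did not pass adjustment (adjusted p = 0.0878, edgeR). Its catalytic partners were closer between groups, at 30.3 to 43.6 CPM in AD and 27.8 to 49.7 CPM in HF + AD mice for Sptlc2 (log2 fold change 0.07) and at 3.898 to 20.9 and 6.65 to 14.8 CPM for Sptlc3 (0.34).

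Sptssb, the other small subunit, was uneven within the AD group, where 3 mice stood at 6.98 to 9.21 CPM, 1 at 0.181 CPM and 1 at 0. All 7 HF + AD mice were in between, at 0.770 to 3.56 CPM. The log2 fold change of -1.16 had an SE of 0.88 (adjusted p = 0.454, edgeR), so no direction is given for this gene. It was spread more widely within the AD group than between the groups.

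Ormdl1 was the most even of the restraining subunits among AD mice, at 55.3, 53.8, 61.5, 56.0 and 59.7 CPM. In the HF + AD group it ranged from 27.9 to 57.9 CPM with a median of 37.9, and 6 of 7 mice lay below every AD mouse, the exception being HF + AD mouse 5. The log2 fold change of -0.54 (SE 0.18) did not pass adjustment (adjusted p = 0.0629, edgeR). It passed without HF + AD mouse 5 (adjusted p = 0.0188), by DESeq2 (0.0376) and by limma (0.0447), and adjusted p ranged from 0.0188 to 0.131 over the 20 alternatives tried. Ormdl2 (72.7 to 94.5 CPM in AD, 80.0 to 104 CPM in HF + AD mice) and Ormdl3 (37.9 to 72.2 and 39.6 to 72.2 CPM) had log2 fold changes of 0.11 and 0.06, and that of Ormdl3 turned negative after the GC correction (-0.18). The 3′ end of Ormdl2 overlaps Dnajc14 on the other strand, and the strand used in counting was not given in the sources used here.

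**Figure D2:**
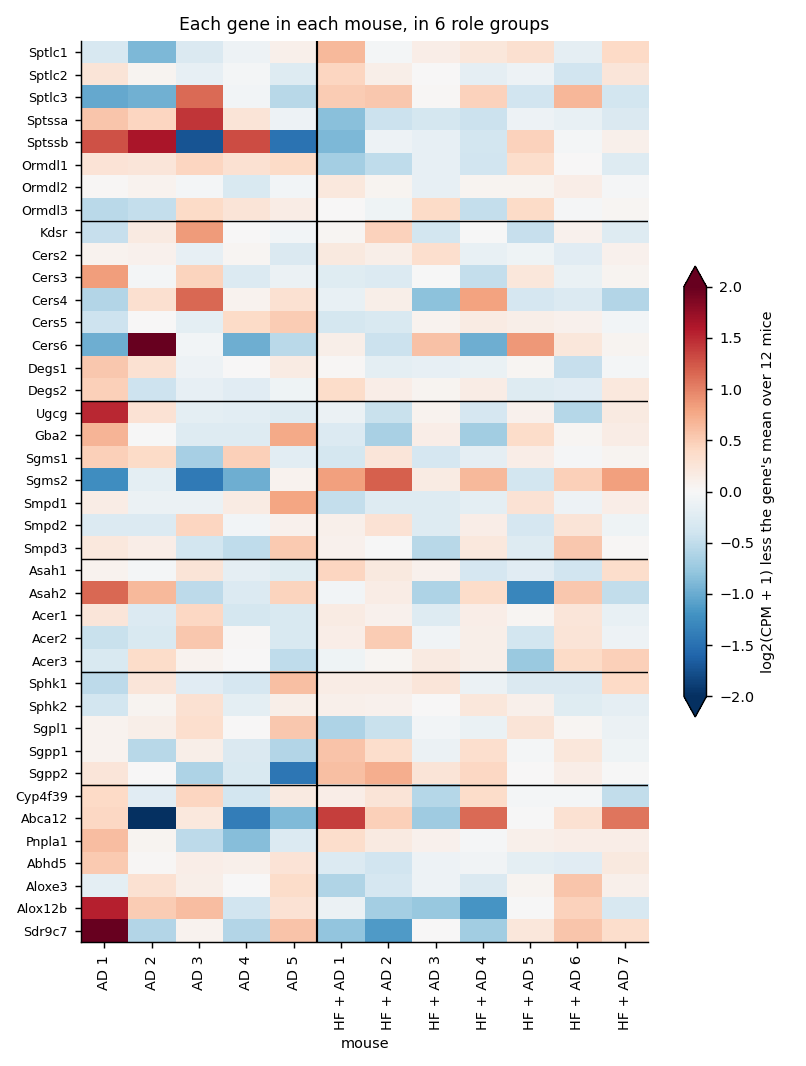
Each of the 40 genes (rows, separated by lines into the 6 role groups in the order of the text) in each of 12 mice (columns), as log2(CPM + 1) less the gene's mean over all mice. Red is higher and blue lower, with colours cut at 2 log2 units. Sptssa is red in AD mice 1 to 4 and Ormdl1 in all 5, Sgms2 is blue in AD mice 1 to 4, and Ugcg, Alox12b and Sdr9c7 are dark red in AD mouse 1.

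The next enzymes lead from the first product to ceramide. Kdsr reduces 3-ketodihydrosphingosine, the ceramide synthases Cers2 to Cers6 attach fatty acids of differing length, Degs1 inserts the double bond that turns dihydroceramide into ceramide, and Degs2 can instead hydroxylate it to phytoceramide. None of these 8 genes passed the adjusted threshold, against 9.2% of all genes. Only 1 (Degs1) had an unadjusted p under 0.05, or 12.5% against 25.1% of all genes. Fitted fold changes were below 0 for 6 of 8, leaving 25% above 0, against 51.7% of all genes. Of those below 0, Kdsr, Cers5 and Cers6 changed sign among the alternatives. The median log2 fold change of the 8 genes was -0.27, against 0.02 for all genes.

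Degs1 (chr1:182275772-182282804, minus strand) stood at 449.6, 385, 289, 313 and 347 CPM in the AD mice, and its lowest, median and highest levels in the HF + AD mice were 225, 283 and 318 CPM. The groups overlapped, with 4 of 7 HF + AD mice below every AD mouse. Degs1 had a log2 fold change of -0.32 (SE 0.13, unadjusted p = 0.0247, adjusted p = 0.13, edgeR). Cers4, the most counted member of its role group, stood at 298, 560.4, 993, 469.6 and 553 CPM in the AD mice and at 255 to 786 CPM (median 373) in the HF + AD mice. The groups overlapped widely for Cers4 (log2 fold change -0.44, SE 0.27, adjusted p = 0.341, edgeR).

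Cers3, which makes the ultra-long-chain ceramides of the epidermis, ranged from 54.4 to 118 CPM in AD and from 47.0 to 76.8 CPM in HF + AD mice (log2 fold change -0.34, adjusted p = 0.288, edgeR). Its highest value was that of AD mouse 1. Cers2 (0.10), Cers5 (-0.13), Kdsr (-0.22) and Degs2 (0.13) differed by log2 fold changes no larger than 0.22 in size, and those of Cers2 and Degs2 turned negative after the GC correction. Cers2 also overlaps Setdb1 on the other strand at its 3′ end. Cers6 was at 0 in 2 AD mice and 1 HF + AD mouse and reached 7.55 CPM in AD mouse 2, so no direction is given for it.

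Ceramide is next converted to storage and membrane lipids and recovered from them. Ugcg attaches glucose, Gba2 removes it outside the lysosome, Sgms1 and Sgms2 transfer phosphocholine to make sphingomyelin in the Golgi and at the plasma membrane, and the sphingomyelinases Smpd1 (acid), Smpd2 and Smpd3 (neutral) release ceramide again. Of these 7 genes, Sgms2 alone was called (14.3%, against 9.2% of all genes). It was also the only 1 with an unadjusted p under 0.05 (14.3%, against 25.1%). Fitted fold changes were below 0 for 5 of 7, leaving 28.6% above 0, against 51.7% of all genes.

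Sgms2 (chr3:131318985-131491411, minus strand) stood at 4.26, 9.83, 3.63, 5.30 and 12.03 CPM in the AD mice. The HF + AD mice had a lowest, median and highest level of 8.61, 18.4 and 27.3 CPM. Of the 7, 6 exceeded every AD mouse, and HF + AD mouse 5 lay within the AD range. The log2 fold change was 1.35 (SE 0.37, adjusted p = 0.0310, edgeR), and the exact permutation test gave p = 0.00631. The call was near its threshold, and it was lost without AD mouse 3 (adjusted p = 0.0645), AD mouse 4 (0.0654), or HF + AD mouse 1 (0.0650), 2 (0.0810), 4 (0.0557) or 7 (0.0594). The log2 fold change stayed between 1.18 and 1.65 over these and all other alternatives, and was 1.37 after the GC correction.

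Sgms1, which makes sphingomyelin in the Golgi, stood at 7.67 to 18.0 CPM in AD and 9.70 to 15.3 CPM in HF + AD mice (log2 fold change -0.22, adjusted p = 0.672, edgeR). Counted within each library, where no scaling between libraries enters, Sgms2 had 0.236 to 1.11 reads per Sgms1 read in AD mice (median 0.474) and 0.613 to 2.15 in HF + AD mice (median 1.59), and 6 of 7 HF + AD mice exceeded every AD mouse. For Sptlc1 against Sptssa, the enzyme's common subunit against its small activating subunit, the corresponding ranges were 0.132 to 0.507 and 0.436 to 1.24, again with 6 of 7 above. Ormdl1 against Ormdl2 ran the other way, at 0.570 to 0.771 in AD and 0.269 to 0.620 in HF + AD mice. Sptlc1 against Sptlc2 separated the groups less, at 1.03 to 2.59 in AD and 1.80 to 2.71 in HF + AD mice. For that ratio 2 of 7 HF + AD mice exceeded every AD mouse. Sgpp1 against Sgpl1 ran from 0.295 to 0.649 in AD and 0.522 to 1.49 in HF + AD mice, with 5 of 7 above. All these ratios were formed after the values were seen and are given as a description.

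**Figure D3:**
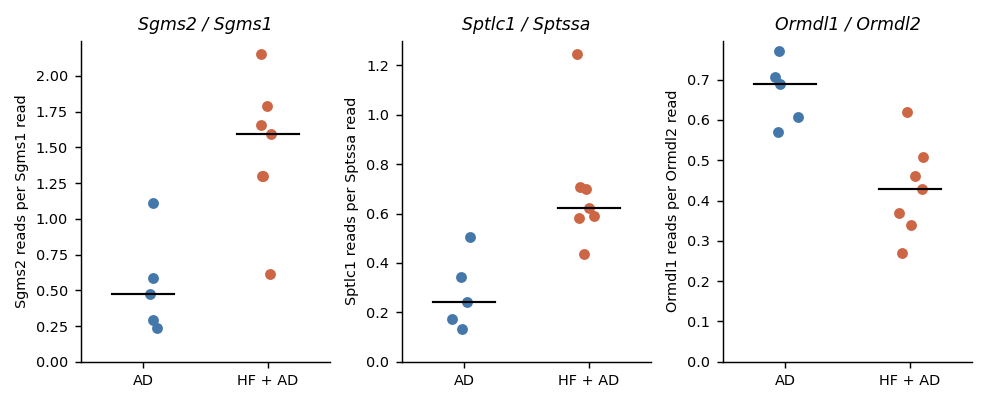
Reads of 1 gene per read of another within each library, by group, with 1 point per mouse and a line at the median (linear axes from 0). In 6 of 7 HF + AD mice, Sgms2 per Sgms1 and Sptlc1 per Sptssa exceed every AD mouse, and the Ormdl1 per Ormdl2 medians are 0.688 in AD and 0.429 in HF + AD mice.

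Among the remaining genes of this group, Smpd1, the acid sphingomyelinase that acts in the lysosome and in the stratum corneum, stood at 124, 103, 103, 125 and 195 CPM in the AD mice and at 79.8, 97.9 and 138 CPM (lowest, median, highest) in the HF + AD mice. Its log2 fold change was -0.31 (SE 0.18, adjusted p = 0.285, edgeR), and 4 of 7 HF + AD mice were below the AD range. Ugcg was at 278 CPM in AD mouse 1 and at 80.6 to 118 CPM in the other AD mice, against 64.8 to 109.5 CPM in the HF + AD mice. Its log2 fold change of -0.55 (adjusted p = 0.215, edgeR) was -0.06 without AD mouse 1. For Gba2 (19.4 to 54.6 CPM over all mice) it was -0.35. Smpd2 and Smpd3 had log2 fold changes of 0.03 and -0.01, whose sign changed with the scaling. Gba2, Smpd2 and Smpd3 each overlap a gene of the other strand at the 3′ end (Creb3, Mical1 and Prmt7), so that their counts are uncertain.

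Ceramidases split ceramide into sphingosine and a fatty acid. Asah1 acts in the lysosome, Asah2 at the cell surface, and Acer1, Acer2 and Acer3 at alkaline pH in the endoplasmic reticulum and Golgi, with Acer1 known from differentiating epidermis and hair follicles. None of these 5 genes had an unadjusted p under 0.05, against 25.1% of all genes. Acer1 stood at 67.7, 47.3, 76.7, 44.4 and 46.2 CPM in the AD mice and at 47.5 to 67.9 CPM (median 60.7) in the HF + AD mice, all 7 of which fell within the AD range. Its log2 fold change was 0.06 (SE 0.17, adjusted p = 0.857, edgeR). Asah1 (0.07), Acer2 (0.16) and Acer3 (0.14) had fitted fold changes of similar size, and Asah2 one of -0.56 with an SE of 0.42. The 5 genes summed to 102 to 152 CPM in AD and 102 to 153 CPM in HF + AD mice.

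Sphingosine is phosphorylated by Sphk1 and Sphk2, sphingosine phosphate is dephosphorylated by Sgpp1 and Sgpp2 and cleaved irreversibly by the lyase Sgpl1. None of these 5 genes passed the adjusted threshold. The 3 that consume sphingosine phosphate each had an unadjusted p under 0.05, and not in 1 direction. That was 60% of the 5 genes, against 25.1% of all genes. The phosphatases were on the higher side in HF + AD mice and the lyase on the lower side.

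Sgpl1 stood at 330.2, 342, 397, 318 and 456 CPM in the AD mice, and at 204, 290.5 and 378 CPM (lowest, median, highest) in the HF + AD mice. The groups overlapped, with 5 of 7 HF + AD mice below the AD range (log2 fold change -0.35, SE 0.15, unadjusted p = 0.0313, adjusted p = 0.15, edgeR). Sgpp1, the phosphatase expressed in most tissues, stood at 214, 138, 221, 166 and 134 CPM in the AD mice and at 187 to 304 CPM (median 239) in the HF + AD mice. In 4 of 7 HF + AD mice Sgpp1 was above the AD range (log2 fold change 0.42, SE 0.17, unadjusted p = 0.0219, adjusted p = 0.122, edgeR).

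Sgpp2, its inducible relative, stood at 17.9, 15.1, 9.49, 11.9 and 4.88 CPM in the AD mice and at 14.9, 18.2 and 25.5 CPM (lowest, median, highest) in the HF + AD mice. Here too 4 of 7 HF + AD mice were above the AD range (log2 fold change 0.69, SE 0.30, unadjusted p = 0.0335, adjusted p = 0.156, edgeR). The kinases overlapped between the groups, at 11.7 to 26.6 and 13.9 to 22.9 CPM for Sphk1 (log2 fold change 0.05, SE 0.25) and 62.1 to 99.5 and 68.4 to 94.2 CPM for Sphk2 (0.02, SE 0.14). Both turned negative after the GC correction, and Sphk2 overlaps Dbp on the other strand at its 3′ end.

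**Figure D4:**
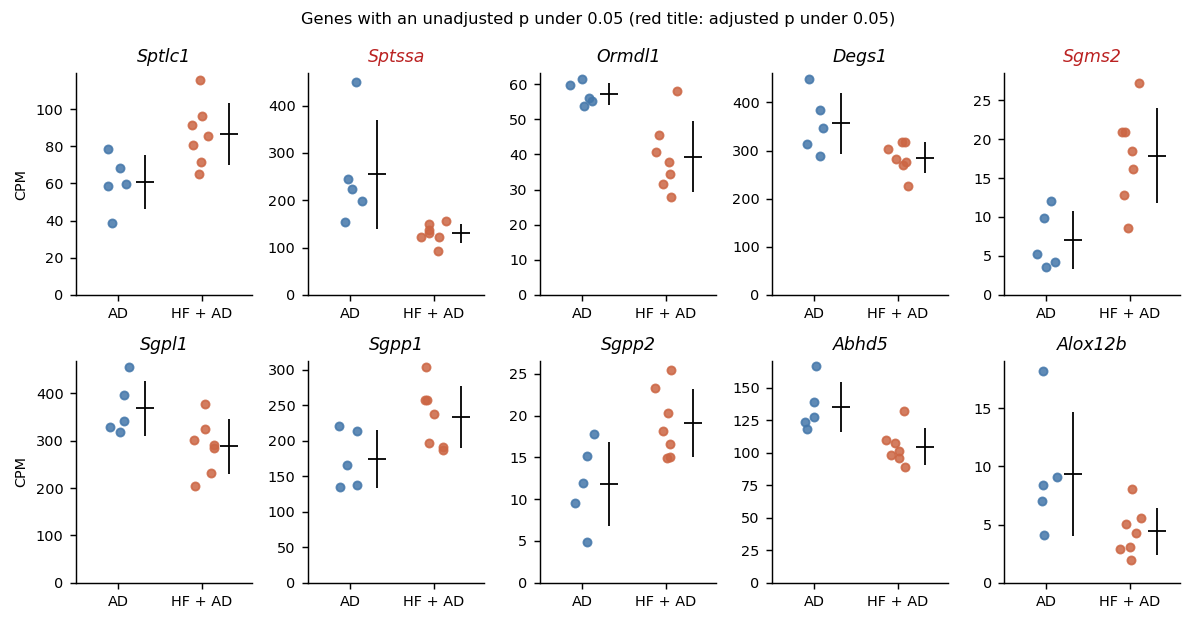
CPM of the 10 genes with an unadjusted p under 0.05 in each AD (blue) and HF + AD (orange) mouse, with the mean and SD beside the points (linear axes from 0). Red titles mark Sptssa and Sgms2, the 2 genes past the adjusted threshold, and in every panel at least 1 HF + AD mouse lies within the AD range.

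The omega-O-acylceramides are made by a chain of enzymes of the granular layer. Cyp4f39 hydroxylates the end of the ultra-long fatty acid, Pnpla1 with its co-factor Abhd5 attaches linoleate, Abca12 loads glucosylceramides into lamellar bodies, and Alox12b, Aloxe3 and Sdr9c7 oxidize the linoleate before it is bound to the cornified envelope. Loss of their human counterparts is a known cause of ichthyosis. None of the 7 passed the adjusted threshold, and 2 (Abhd5 and Alox12b, on the lower side) had an unadjusted p under 0.05. That was 28.6%, against 25.1% of all genes.

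Abhd5 stood at 167, 118, 128, 124 and 139 CPM in the AD mice, and 6 of 7 HF + AD mice (88.8 to 132 CPM, median 101) lay below all of them. Its log2 fold change was -0.37 (SE 0.13, unadjusted p = 0.0134, adjusted p = 0.0932, edgeR). Abhd5 also activates triglyceride lipase in many cells, and its 3′ end overlaps A730085K08Rik on the other strand. Alox12b, which carries out the first oxidation, stood at 18.2, 8.38, 9.08, 4.07 and 7.05 CPM in the AD mice and at 1.91, 4.28 and 8.07 CPM (lowest, median, highest) in the HF + AD mice, 3 of which were below the AD range. Its log2 fold change of -1.08 (SE 0.46, adjusted p = 0.144, edgeR) ranged from -1.30 to -0.69 over the alternatives.

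Aloxe3, which acts on the product of Alox12b, ranged from 28.9 to 43.6 CPM in AD and 21.8 to 49.7 CPM in HF + AD mice (log2 fold change -0.19), and Cyp4f39 from 15.2 to 27.2 and 13.1 to 26.0 CPM (-0.14). Pnpla1 was more even in HF + AD mice (34.9 to 45.5 CPM) than in AD mice (19.2 to 54.5 CPM). Abca12 was at 0 in AD mouse 2 and between 0.530 and 4.35 CPM in the other AD mice, and 4 of 7 HF + AD mice (1.45 to 9.39 CPM) exceeded them. Its log2 fold change of 1.46 had an SE of 0.82 (adjusted p = 0.286, edgeR), and the AD libraries, in which fewer genes had a read, are also those with the zero. The part of this difference between libraries in the low values of Abca12 was not tested.

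AD mouse 1 had the highest summed level in this role group and in that of glucosylceramide and sphingomyelin turnover. In each of the remaining role groups AD mouse 3 was the highest AD mouse. AD mice 1 and 3 were each the highest AD mouse for 13 members. In AD mouse 1 the 7 omega-O-acylceramide genes summed to 413 CPM, against 215 to 284 CPM in the other AD mice and 199 to 269 CPM in the HF + AD mice. Sdr9c7 was at 114 CPM in AD mouse 1, 18.1 to 41.3 CPM in the other AD mice and 12.1 to 41.1 CPM in the HF + AD mice, and its log2 fold change of -0.77 was -0.04 without AD mouse 1. The same mouse had the highest summed level of 15 markers of suprabasal and granular keratinocytes, 6623 CPM, against 1666 to 4040 CPM in the other AD mice and 1757 to 4802 CPM in the HF + AD mice. None of these 15 markers was called between the groups, at a median log2 fold change of -0.24. The 9 markers of hyperproliferative epidermis, none of them called, were also highest in AD mouse 1, at 25694 CPM against 7511 to 9903 CPM in the other AD mice and 7337 to 19244 CPM in the HF + AD mice. The 7 glucosylceramide and sphingomyelin genes summed to 535 CPM in AD mouse 1, 291 to 428 CPM in the other AD mice and 290.1 to 362 CPM in the HF + AD mice. Among AD mice it also had the highest summed markers of fibroblasts (9924 CPM), macrophages and dendritic cells (203 CPM) and T cells (24.8 CPM). The same held for mast cells (221 CPM), adipocytes (287 CPM) and endothelium (97.5 CPM). It was the lowest AD mouse for hair shaft (2740 CPM), inner root sheath (6812 CPM) and sebocyte (331 CPM) markers. For basal keratinocyte and skeletal muscle markers it lay between other AD mice. The part of any of these markers in the levels of AD mouse 1 was not tested.

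**Figure D5:**
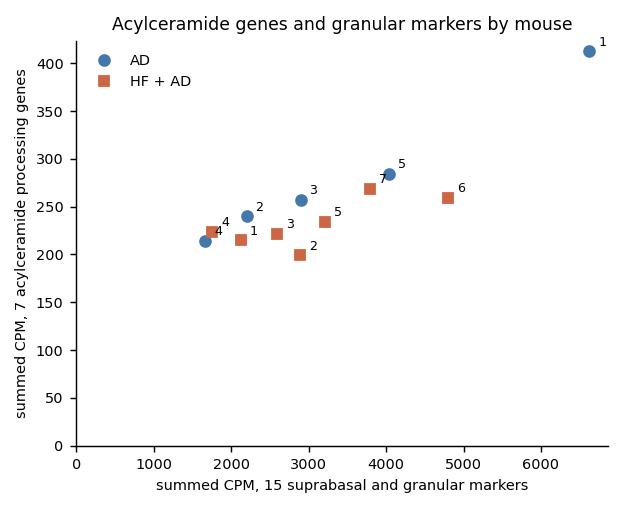
Summed CPM of the 7 omega-O-acylceramide processing genes (y axis) against summed CPM of 15 suprabasal and granular keratinocyte markers (x axis), with 1 numbered point per mouse (linear axes from 0). AD mouse 1 lies alone at the upper right (413 and 6623 CPM), and the other 11 mice of both groups overlap on both axes.

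Some markers of other skin compartments differed between the groups, and their part in the results above was not tested. The lists are short, and 9.2% of all genes were called. The 8 basal keratinocyte markers summed to 3915 to 5741 CPM in AD and 6523 to 11201 CPM in HF + AD mice without overlap, with Krt5, Krt14 and Krt15 called higher (1.75-, 2.06- and 2.31-fold). Among follicle markers, 4 of 12 hair shaft genes (summed level 2740.0 to 5514 CPM in AD and 4321 to 6854 CPM in HF + AD mice) and 3 of 8 inner root sheath genes (6812 to 11314 and 8394 to 11858 CPM) were called higher and none lower. Of 6 endothelial markers 2 were called higher (Cdh5 and Kdr, with a summed level over the list of 54.6 to 97.5 and 64.7 to 129 CPM). Of 10 skeletal muscle markers 2 were called lower (Acta1 and Atp2a1, 1375 to 3048 and 869 to 2225 CPM over the list). Of the sebocyte and the adipocyte markers, 1 of 7 tested was called higher in each list, or 14.3%. The share called was 37.5% for basal keratinocyte and inner root sheath markers and 33.3% for hair shaft and endothelial markers. For skeletal muscle markers it was 20%. No marker was called for fibroblasts, macrophages and dendritic cells, T cells, mast cells or hyperproliferative epidermis, and the mast cell gene Fcer1a was at 0 in every AD library.

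A further 58 genes of the pathway, outside the 40, were listed by role, and 54 were tested. Of these 8 were called (14.8%, against 9.2% of all genes), 4 higher and 4 lower in HF + AD mice. That split was not stable to scaling, with 2 higher and 7 lower after the GC correction and 6 higher and 3 lower with library totals as the scaling. At an unadjusted p under 0.05 there were 21 (38.9%, against 25.1% of all genes), 12 higher and 9 lower. The groups did not overlap for 5 of the 54 genes (Cers1, Cerk, Samd8, Lipm and Sult2b1, the last not called), or 9.26% against 5.45% of all genes, and the median log2 fold change was -0.06.

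The calls were most frequent among the 16 genes for fatty acid elongation and ceramide making and transfer, with 3 higher and 2 lower. That was 31.2%, against 9.2% of all genes and 5.88%, 9.09% and 10% in the other lists of pathway genes. The lists were chosen with earlier results of these data known, so these shares are a description only. Samd8, which makes ceramide phosphoethanolamine, stood at 55.2 to 81.3 CPM in AD and 89.3 to 123 CPM in HF + AD mice, without overlap (log2 fold change 0.61, adjusted p = 0.0141, edgeR). Cers1, a ceramide synthase best known from brain and muscle, stood at 29.6 to 38.1 and 38.6 to 78.2 CPM, also without overlap (0.79, adjusted p = 0.0169), but it shares exons with Gdf1 on the same strand, so that its reads cannot be told from those of Gdf1, and it was not called after the GC correction (adjusted p = 0.105). Elovl1, the elongase that makes very-long-chain fatty acids for ceramide, ranged from 66.0 to 137 CPM in AD and 112 to 226 CPM in HF + AD mice (log2 fold change 0.70, adjusted p = 0.0343, edgeR). That call was lost after the GC correction (0.0538), on leaving out AD mouse 2 (0.0818), 3 (0.0673), 4 (0.0558) or 5 (0.0539), and on leaving out HF + AD mouse 1 (0.0746), 2 (0.0793), 4 (0.0586) or 7 (0.0556). Exons of Elovl1 also overlap Cdc20 on the other strand, and whether they do so at the 3′ end was not determined.

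In the other direction, Cerk, which phosphorylates ceramide, was at 73.1 to 114 CPM in AD and 35.9 to 69.3 CPM in HF + AD mice, without overlap (log2 fold change -0.61, adjusted p = 0.03996, edgeR). Hsd17b12, the ketoacyl reductase of fatty acid elongation, ranged from 840.3 to 1259 and 547 to 1065 CPM (-0.62, adjusted p = 0.0281). Hsd17b12 was not called on leaving out AD mouse 2 (0.0629) or 3 (0.0644), nor on leaving out HF + AD mouse 2 (0.0610), 6 (0.0555) or 7 (0.0533). Cerk was not called with library totals as the scaling (0.0567), nor on leaving out AD mouse 1 (0.0597), 3 (0.101) or 4 (0.0623), nor on leaving out HF + AD mouse 1 (0.0679), 2 (0.0874), 3 (0.0584), 4 (0.0579) or 7 (0.0501).

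Outside that role, 1 gene was called in each list. Smpdl3a, a phosphodiesterase related to acid sphingomyelinase, stood at 31.6 to 75.3 CPM in AD and 18.9 to 31.9 CPM in HF + AD mice (log2 fold change -0.90, adjusted p = 0.0197, edgeR). Plpp3, listed under its older symbol Ppap2b, is a lipid phosphate phosphatase that can dephosphorylate sphingosine phosphate outside the cell, and it ranged from 30.8 to 84.0 CPM in AD and 47.5 to 188 CPM in HF + AD mice (1.08, adjusted p = 0.0389). For Plpp3 the call was lost on leaving out AD mouse 2 (0.0864), 3 (0.0881), 4 (0.0710) or 5 (0.0737), and on leaving out HF + AD mouse 1 (0.0835), 2 (0.0882), 4 (0.0620) or 7 (0.0557). Lipm, an epidermal lipase, stood at 90.5 to 128 CPM in AD and 39.6 to 89.4 CPM in HF + AD mice, without overlap (-0.76, adjusted p = 0.0145). Exons of Lipm overlap Ankrd22 on the other strand. Whether they do so at the 3′ end was not determined, and the strand used in counting was not given. None of the 5 sphingosine phosphate receptors was called, and S1pr4 was among the 4 genes with too few counts to be tested.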

How the data were processed

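RNA was extracted from skin with Trizol and sequenced with a QuantSeq 3′ library kit, 1 library per mouse, and the read counts deposited by the authors are raw, 1 value per gene symbol. The submitters' processing notes name Bowtie2, bedtools and the mm10 build, and the paper names edgeR for normalization, while the strand used in counting and the removal of duplicates are not given in the sources used here. Groups were taken from the sample labels. Nothing in the labels says more of the mice's relation, so p-values measure the spread between these samples. No pair of libraries held identical values. The 40 members and all lists were chosen with earlier results of these data known. The 13 marker lists and 4 pathway lists were written from general knowledge.

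Counts were normalized by TMM, filtered with filterByExpr and tested with the quasi-likelihood test of edgeR 4.0.16 (R 4.3.3) over all 12 libraries with condition as the only term and Benjamini-Hochberg adjustment over 14163 genes at a threshold of 0.05. The SE is the log2 fold change divided by the root of F. CPM uses TMM-scaled totals, and single genes were compared on log2(CPM + 1) by two-sided exact permutation tests over 792 splits. Limits from a count of 0 take 3 counts over library totals without TMM scaling, and cover counting error only. The genes given in full are members with an unadjusted p under 0.05, the most counted member of each role, any member dropped by the filter (none was), and other pathway genes with an adjusted p under 0.05. Genes named beside them were chosen after their values were seen. Positions, overlaps and GC content came from GENCODE M21 (GRCm38) and promoters from RefSeq. Alternatives were DESeq2 1.42.0 size factors and Wald test, library totals alone, no filter, at least 10 counts in every library, limma 3.58.1 (prior count of 2), a pseudocount of 0.1, the replicate number as a block, leaving out each mouse and, added after the data were seen, a GC correction in 20 bins. Where a mouse was left out, the filter was applied anew. The edgeR, limma and DESeq2 fits were tested on counts simulated with known fold changes and the same spread in both groups. The GC correction, the replicate block and the permutation tests were not tested in that way. Python 3.11.15, pandas 2.3.3, numpy 2.4.6 and matplotlib 3.10.9 were also used.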

Additional observations from a re-analysis of the deposited data

How the results depend on the processing

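The number of sphingolipid genes with an adjusted p under 0.05, 2 in the reported fit, lay between 1 and 3 when 1 mouse was left out, and in each fit with 1 call the remaining gene was Sptssa. The number at an unadjusted p under 0.05, reported as 10, lay between 7 and 13. The count of members whose groups did not overlap, reported as 0, lay between 0 and 3, and was 3 without HF + AD mouse 5. Of the other pathway genes, reported as 8, between 4 and 10 were called, the fewest without AD mouse 3 or HF + AD mouse 2 or 7. Samd8, Smpdl3a and Lipm were each called in 19 of 20 alternatives, the exception being the replicate block. Sptssa passed the adjusted threshold in 19 of 20 alternatives (adjusted p between 0.000352 and 0.0650) and Sgms2 in 13 of 20 (0.00542 to 0.127).

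Groups shared replicate numbers, and same-numbered mice did not deviate together (correlations between -0.0815 and 0.0389). The highest correlation of each AD mouse with any HF + AD mouse was also low, at 0.0326 to 0.108. With 1 library per mouse this cannot decide whether the numbers stand for a pairing, on which the labels say nothing. With the replicate number as a block, 0 members and 0 other pathway genes were called and 192 genes in all, against 1303. AD mice were numbered 1 to 5 only, so HF + AD mice 6 and 7 had no AD mouse in their block. That fit therefore drew its comparison from mice 1 to 5 of each group, with less information on their spread. The part of this loss of samples in the fewer calls was not tested. Under the block Sptssa had a log2 fold change of -0.95 (adjusted p = 0.0650) and Sgms2 one of 1.41 (0.127).

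For Acer1 the fitted log2 fold change lay between -0.0054 (without AD mouse 4) and 0.1983 when 1 mouse was left out. With library totals alone as the scaling, 744 genes were higher and 515 lower over all genes (59.1% higher, against 48.1%), and with the GC correction 474 and 869 (35.3% higher), against 627 and 676. DESeq2's Wald test gave 988 and 957. The replicate block gave 100 and 92. Removal of a single mouse lowered the calls furthest for HF + AD mouse 2, to 308 and 331. The signs of Ormdl3, Cers2, Degs2, Smpd2, Smpd3, Sphk1 and Sphk2 changed with scaling. The cause of these changes was not tested. Cers6, Sptssb and Abca12 were at 0 in some libraries, where a count of 0 allows up to 0.308 CPM from library totals alone.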
